A study of Mus musculus with 3 samples.

Results

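The core genes of the circadian clock were examined in sorted glomerular endothelial cells (GEC) from adult mouse kidneys. The set holds 10 genes chosen by name, Arntl, Clock, Per1, Per2, Per3, Cry1, Cry2, Dbp, Tef and Bhlhe40, out of 19938 genes named on the array, and each is represented by 1 probe set that names no other gene. The cells came from adult Tie2-GFP mice (Tg(TIE2GFP)287Sato) on a mixed, mostly CD-1 background and of unknown sex. In these mice green fluorescent protein is made under control of the Tie2 (Tek) promoter, which is active in endothelium and also in some blood-forming cells. Kidney cortex was treated with collagenase, glomeruli were retained on sieves and trypsinized, and fluorescent cells were sorted. There were 3 arrays, replicates 1, 3 and 5, each from the RNA of 1 kidney after 1 round of amplification, and all form 1 group, so each gene was compared with a detection level and not between conditions. No source used here gives the hour at which the kidneys were taken.

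The clock is a transcriptional feedback loop present in nearly all cells. CLOCK and ARNTL (also called BMAL1) form a heterodimer that binds E-box elements and activates the Per and Cry genes, whose proteins return to the nucleus and repress that heterodimer. A coupled loop acts on Arntl itself, through the nuclear receptors REV-ERB (Nr1d1 and Nr1d2), which repress it, and ROR (Rora and Rorb among them), which activate it. Dbp, Tef and Hlf encode PAR bZIP factors that carry the rhythm to output genes through D-box elements. In peripheral tissues, the kidney included, transcripts of Arntl peak at nearly the opposite time of day from those of the Per genes and Dbp, so the level of each gene depends on when the tissue was taken.

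All levels are log2 signals, and the detection level was set at 100, which is 6.64 on that scale and is the cutoff of raw signal by which the study filtered genes. A gene was called above or below it at an adjusted p under 0.05 (limma, Benjamini-Hochberg over 21789 probe sets that name 1 gene), and means are given ± SD over the 3 arrays (n = 3). Over all probe sets tested, 15.8% were called above and 72.5% below. Of the endothelial markers 10 of 10 were called above, Pecam1 with a mean of 10.26 ± 0.21 and Cdh5 with one of 10.75 ± 0.32 among them. Of podocyte markers 3 of 3 were called below, among them Nphs1 at 5.47, and so were 5 of 5 each for mesangium and smooth muscle (Pdgfrb at 4.22, Acta2 at 5.21), proximal tubule (Slc34a1 at 5.37, Lrp2 at 4.33), distal nephron (Umod at 5.15, Slc12a1 at 3.56) and leukocytes (Ptprc at 4.77, Cd68 at 5.29). These marker calls are against 100, and those against a lower level are given below. The median level over all 35557 probe sets was 4.85, 4.80 and 4.79 on replicates 1, 3 and 5. Identical values on all 3 arrays were deposited for 54.1% of the 21789 probe sets, so an SD of 0 is a property of the deposited summaries and not a measured absence of spread. For such genes the 95% interval and the adjusted p rest on the spread of other probe sets. The same holds in large part for the 5 core clock genes with the same value on 2 arrays. The standard error used for Arntl was 0.1181, beside 0.1179 for Clock with an SD of 0, and that for Cry1 was 0.147.

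Both activators were measured above the detection level. Clock, the histone acetyltransferase partner of the heterodimer, was at 8.50 on each of replicates 1, 3 and 5, with a 95% interval of 8.18 to 8.83 (limma, adjusted p = 0.000193). Arntl, its bHLH-PAS partner, was at 7.07, 7.10 and 7.07 on replicates 1, 3 and 5, a mean of 7.08 ± 0.01 with an interval of 6.76 to 7.41 (limma, adjusted p = 0.0237). Clock lay 1.86 and Arntl 0.44 above the level on the log2 scale. All 3 arrays were above the level for both genes. With 2 arrays in place of 3, the call of Clock held and that of Arntl did not (limma, adjusted p = 0.136, 0.0561 and 0.125 without replicates 1, 3 and 5).

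**Figure D1:**
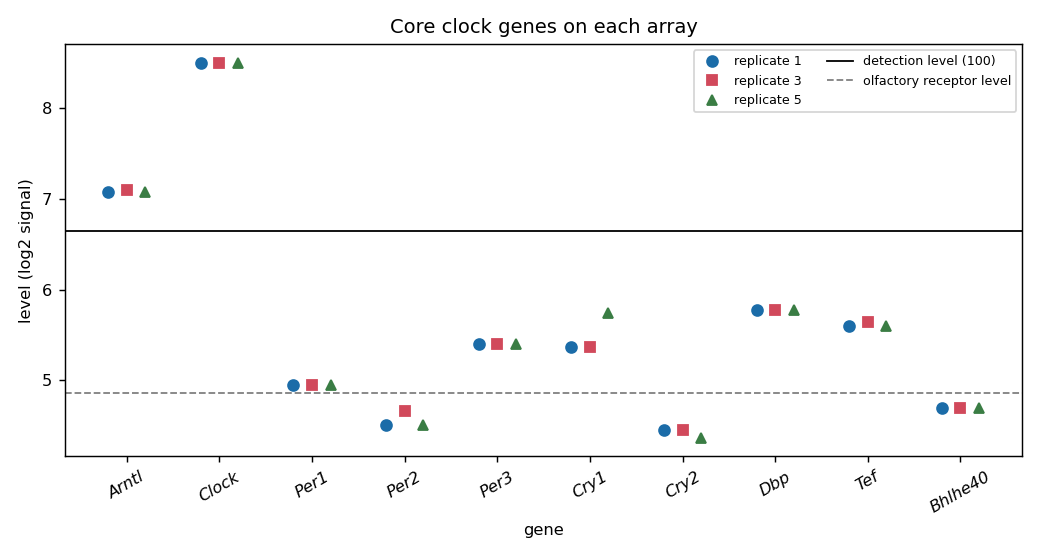
Level (log2 signal) of the 10 core clock genes on replicates 1, 3 and 5. The solid line marks the detection level of 100, and the dashed line marks the level under which 95% of olfactory receptor probe sets lie. Clock at 8.50 and Arntl near 7.08 lie above the detection level on every array, and the other 8 genes lie under it.

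The Period genes were all called below the level. Their proteins are PAS domain repressors of the heterodimer. Per1 was at 4.95 on every array, 1.69 under the level (limma, adjusted p = 0.000254), and Per3 was at 5.40 on every array (limma, adjusted p = 0.000692). Per2 was at 4.50, 4.66 and 4.50 on replicates 1, 3 and 5, a mean of 4.56 ± 0.09 (limma, adjusted p = 0.000157). Every array was under the level for all 3 genes.

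The cryptochromes Cry1 and Cry2, partners of the Period proteins in repression, were also called below. Cry1 was at 5.37, 5.37 and 5.74 on replicates 1, 3 and 5, with a mean of 5.49 ± 0.22 (limma, adjusted p = 0.00195). Its difference of 0.38 between the highest and lowest array, or 1.30-fold, was the widest of the 10 genes. Cry2 was at 4.45, 4.45 and 4.37, with a mean of 4.42 ± 0.05 (limma, adjusted p = 0.000124).

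The output factors and Bhlhe40 were below the level as well. Dbp was at 5.77 on every array, 0.87 under the level (limma, adjusted p = 0.00235). Tef was at 5.60, 5.64 and 5.60 on replicates 1, 3 and 5, a mean of 5.61 ± 0.02 (limma, adjusted p = 0.00133). Bhlhe40, a bHLH repressor that competes at E-boxes and also responds to hypoxia, was at 4.70 on every array (limma, adjusted p = 0.00017).

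In all, 2 of the 10 core clock genes passed the test above the level (15.8% of all probe sets), 8 passed it below (72.5%) and 0 passed neither way (11.6%), counts close to those of the array as a whole. A signal of at least 100 on all 3 arrays was seen for 2 of the 10 genes, and for 18.8% of all probe sets. The median level of the 10 genes was 5.45, beside 5.04 over all probe sets tested. Clock stood at percentile 93.5 of the 21789 probe sets and Arntl at 83.8, while the other 8 ranged from percentile 35.0 (Cry2) to 65.6 (Dbp).

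The calls of the repressors and outputs depended on the level chosen. The 1035 probe sets of olfactory receptors, which are used mainly by olfactory neurons, gave a 95th percentile of 4.85, and against that lower level 6 genes were called above (Clock, Arntl, Dbp, Tef, Cry1 and Per3). Only Cry2 was called below it (limma, adjusted p = 0.029), and Per1, Per2 and Bhlhe40 were called neither, with adjusted p = 0.485, 0.0849 and 0.28. Over all 21789 probe sets, 9680 were called above the olfactory receptor level and 7889 below it. Of the markers of other cell types, 2 of 3 for podocytes and 2 of 5 for leukocytes were called above it. So were 1 of 5 for proximal tubule, 1 of 5 for distal nephron and 0 of 5 for mesangium and smooth muscle. Called below it were 0, 1, 2, 2 and 1 markers of these lists, in the same order. By the mean alone, 54.2% of all probe sets lay over that level, and 7 of the 10 clock genes did. A call below 100 therefore does not show that a gene was silent, and the signals of Per1, Per2 and Bhlhe40 could not be told from the upper end of the olfactory receptor signals. The mean of Cry2 was lower still, over that of 89.4% of the olfactory receptor probe sets. Its call below the 95th percentile thus does not set it apart from their signals.

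**Figure D2:**
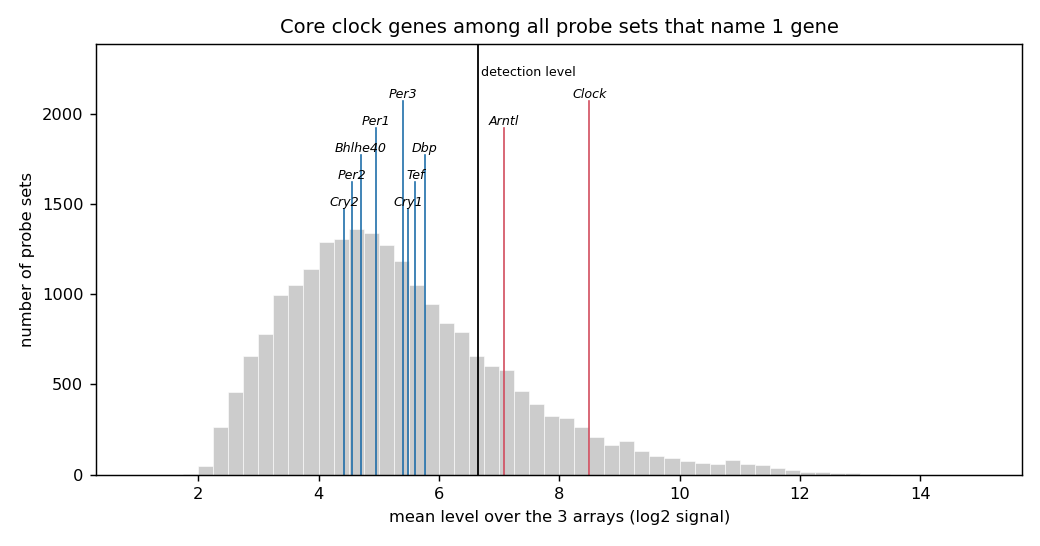
Number of probe sets (bars) by mean level over the 3 arrays (log2 signal) for the 21789 probe sets that name 1 gene, with the 10 core clock genes as labelled lines, red where called above and blue where called below the detection level (black line). Clock (percentile 93.5) and Arntl (percentile 83.8) lie to the right of the main peak, and the other 8 between 4.42 and 5.77, in the main peak.

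By signal, the order was Clock, Arntl, Dbp, Tef, Cry1, Per3, Per1, Bhlhe40, Per2 and Cry2. The signal of a probe set also depends on its probes, so this is an order of signals and not of transcript numbers. The intervals of Clock and Arntl did not overlap each other, and that of Arntl did not overlap that of Dbp. From Dbp downwards every neighbour in the order had an overlapping 95% interval, with gaps of 0.09 to 0.45 on the log2 scale.

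Several of the low values were not particular to 1 gene. Per1 had exactly the value of 91 other probe sets on all 3 arrays, 3 of them olfactory receptors, Bhlhe40 that of 46 others, Per3 that of 27 and Dbp that of 9. Among probe sets under the detection level on replicate 1, 72.8% shared their value with another probe set, against 26.4% of those at or over it. Arntl, Clock, Per2, Cry1, Cry2 and Tef shared their set of 3 values with no other probe set. The cause of the shared values was not tested.

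Short stretches of the promoters of core clock genes are shown because the clock loops are defined by the elements they hold. A link between these elements and the levels was not tested. Sequences are from RefSeq on the mouse build GRCm38.p6, whose promoter table matched 8 of the 10 genes (not Per2 and Bhlhe40). The 250 bases before each annotated start were searched on both strands for the E-box CACGTG, its variant CACGTT, the D-boxes TTATGTAA and TTACGTAA, the cAMP response element TGACGTCA and the ROR element core TAGGTCA, none of which overlapped another in these windows. Capitals mark the motif, each line reads 5′ to 3′ on the strand of the gene, and Per1 and Tef have 2 annotated starts each.
Per1, first start, chr11:69098753-69098818, plus strand: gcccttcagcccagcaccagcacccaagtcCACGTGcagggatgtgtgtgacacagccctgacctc
Per3, chr4:151044786-151044900, minus strand: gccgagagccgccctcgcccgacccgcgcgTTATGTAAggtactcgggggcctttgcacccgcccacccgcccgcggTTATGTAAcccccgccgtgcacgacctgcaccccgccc
Cry1, chr10:85185079-85185163, minus strand: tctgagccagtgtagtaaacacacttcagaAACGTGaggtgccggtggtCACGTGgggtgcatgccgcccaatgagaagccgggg
Cry2, chr2:92434200-92434265, minus strand: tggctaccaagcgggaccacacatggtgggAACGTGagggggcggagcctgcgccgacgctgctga
Tef, first start, chr15:81802516-81802581, plus strand: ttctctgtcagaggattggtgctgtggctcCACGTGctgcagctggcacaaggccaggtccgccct
Tef, second start, chr15:81811246-81811311, plus strand: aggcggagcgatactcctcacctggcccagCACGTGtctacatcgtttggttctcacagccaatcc

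The E-box CACGTG was found in 3 of the 8 matched genes, Per1 (first base 166 bases before its first start, with none at its second), Cry1 (60 bases) and Tef (127 and 138 bases before its starts). Of the 27025 genes with a promoter there, 6.86% held it. The variant CACGTT, read as AACGTG on the gene's strand, lay in Cry1 and Cry2, against 4.5% of all genes. Per3 held the D-box TTATGTAA at 205 and at 158 bases before its start, and 1.1% of all genes held a D-box. None of these letters was found in the 250-base windows of Arntl, Clock and Dbp. A match is a string of letters, and binding was not measured.

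Among the other genes of the loops, only the REV-ERB receptors were called above the level. In this list 10 genes were measured, and 7 were called below, 2 above and 1 neither, near the shares over all probe sets of 72.5%, 15.8% and 11.6%. The median was 5.00, beside 5.04 over all probe sets. Nr1d1, a heme-binding repressor of Arntl transcription, was at 8.11, 7.57 and 8.78 on replicates 1, 3 and 5, a mean of 8.15 ± 0.61 (limma, adjusted p = 0.00648). Its call was lost when the variance prior came from all probe sets (limma, adjusted p = 0.0516). Nr1d2, its paralogue, was at 7.75, 7.78 and 7.78, a mean of 7.77 ± 0.02 (limma, adjusted p = 0.000978). Every array was above the level for both receptors.

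The opposing ROR receptors were low, with Rora at 5.07 and Rorb at 3.61 on every array, both called below. So was Arntl2, a paralogue of Arntl, at 3.94. Hlf, the third PAR bZIP factor, had a mean of 4.50 ± 0.08, Ciart, a repressor of the heterodimer, one of 3.85 ± 0.08 and Timeless one of 4.98 ± 0.05. Nfil3, which opposes the PAR bZIP factors at D-boxes, lay at the level, with 6.60, 6.23 and 6.94 on replicates 1, 3 and 5 (mean 6.59 ± 0.35, limma, adjusted p = 0.797). Bhlhe41, the paralogue of Bhlhe40, was below at 4.64, 5.70 and 4.76 (mean 5.03 ± 0.58, limma, adjusted p = 0.00454).

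Genes for the modification and turnover of clock proteins, most of which act in many other pathways, had a median of 6.97, beside 5.04 over all probe sets. In this list 11 genes were measured, and 5 were called above, 2 below and 4 neither, beside 15.8%, 72.5% and 11.6% of all probe sets. Csnk1d, the casein kinase 1 delta that phosphorylates the Period proteins, was at 7.62 on every array (limma, adjusted p = 0.00158), and its paralogue Csnk1e at 6.89 was called neither (limma, adjusted p = 0.111). Csnk2a1 at 8.62 and Gsk3b at 7.87, 7.73 and 7.87 on replicates 1, 3 and 5, further kinases of clock proteins, were above, as were the phosphatase subunit gene Ppp1cb at 10.41 and Nono, a cofactor of the Period proteins, at 9.15. The F-box genes Btrc at 6.56 and Fbxw11 at 6.54, whose products target phosphorylated Period proteins for degradation, were called neither, and so was the deacetylase gene Sirt1 at 6.97 ± 0.14. Fbxl21, an F-box gene of cryptochrome turnover, was below at 3.66 ± 0.01, and so was the deubiquitinase gene Usp2 at 4.83.

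**Figure D3:**
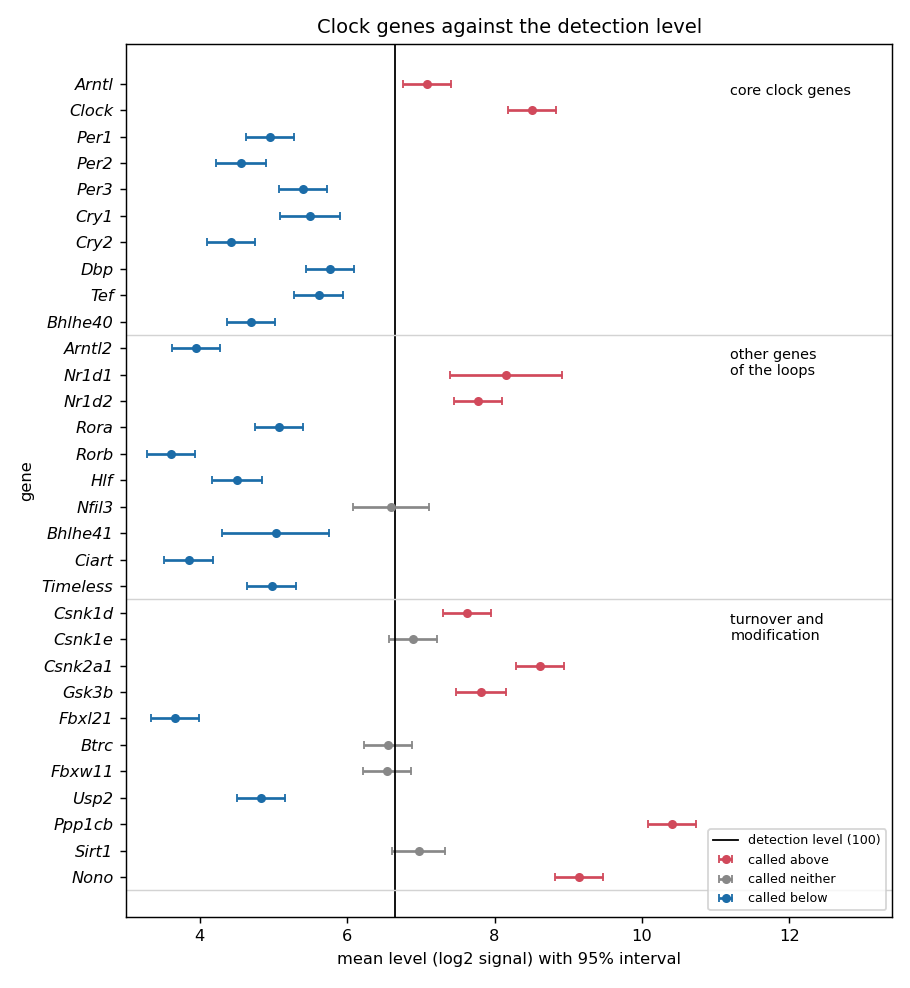
Mean level (log2 signal, points) with the 95% interval of the moderated fit (bars) for core clock genes, other genes of the loops and genes of clock protein turnover and modification, coloured by the call against the detection level (black line). Of the loop genes Clock, Arntl, Nr1d1 and Nr1d2 lie above the level, and Ppp1cb at 10.41 has the highest mean shown.

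Between the 3 kidneys, the share of core clock genes without any difference was close to that over all probe sets. Of the 10 genes, 5 (Clock, Per1, Per3, Dbp and Bhlhe40) were identical on all arrays within 1e-09, beside 54.1% of all probe sets, and 5 had the same value on 2 of the arrays, beside 25.7%. None had 3 different values, which 20.2% of all probe sets had. None of the 10 differed by over 2-fold between arrays, beside 5.73% of all probe sets. Per2, Arntl and Tef were highest on replicate 3, by 0.15, 0.03 and 0.04 over the other arrays, and Cry1 was highest on replicate 5. With 1 array per kidney, a difference between kidneys could not be tested.

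Of the other loop genes measured, 2 of 10 differed by over 2-fold between the highest and lowest array, Nr1d1 by 2.31-fold and Bhlhe41 by 2.08-fold. Nfil3 differed by 1.63-fold, Nr1d2 by 1.02-fold, and Rora, Rorb and Arntl2 were identical on all arrays. Nr1d1 and Nfil3 were lowest on replicate 3 and highest on replicate 5, whereas Bhlhe41 was highest on replicate 3. Endothelial markers moved in part with Nr1d1: 8 of 10 were lowest on replicate 3 and 8 of 10 were highest on replicate 5, with list medians of 10.50, 9.77 and 10.58 on replicates 1, 3 and 5. Kdr, the gene of a VEGF receptor, was at 10.83, 9.53 and 11.18, and Eng, a co-receptor gene of TGF-beta, at 8.91, 9.31 and 9.96. Itga8, the mesangial integrin gene, was at 6.08, 4.94 and 4.75, highest on replicate 1. Over all 21789 probe sets tested, 14929 had no single lowest array, and 2175, 2740 and 1945 were lowest on replicates 1, 3 and 5. No single highest array was found for 14245, and 2082, 3101 and 2361 were highest on replicates 1, 3 and 5. Replicate 3 was thus both the most frequent lowest and the most frequent highest array. The part of the cell preparation in the difference of Nr1d1 was not tested, and in sorted cells fewer endothelial cells and less RNA per cell cannot be told apart.

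**Figure D4:**
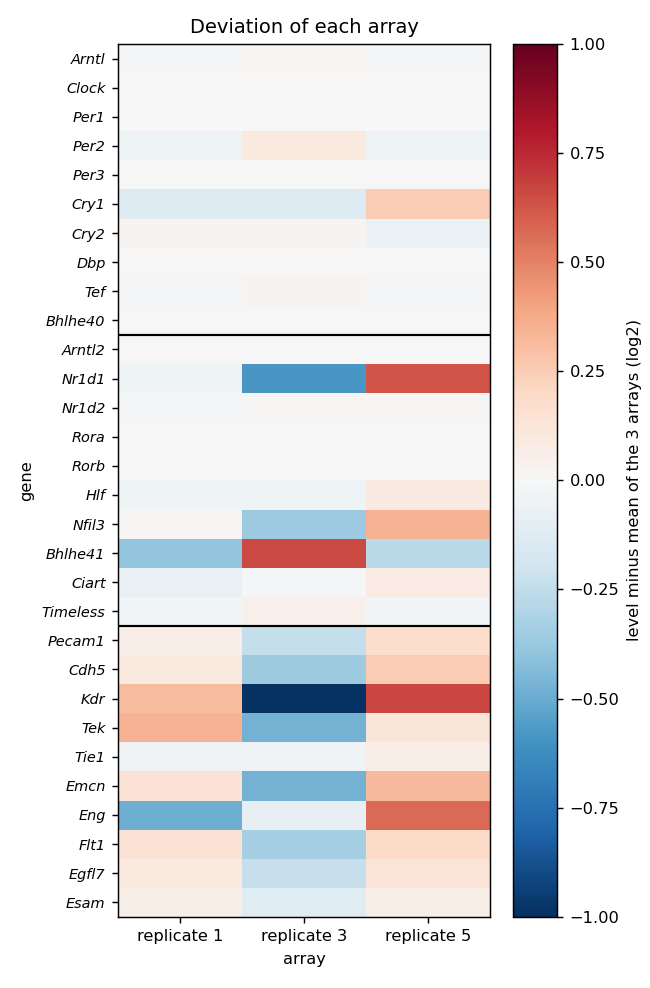
Level on each array minus the mean of the 3 arrays (log2, colour) for core clock genes (top block), other genes of the loops (middle block) and endothelial markers (bottom block). The core clock genes are nearly without colour, while Nr1d1 and Kdr are low on replicate 3 and high on replicate 5.

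Of 12 genes often described as outputs of the clock, 10 were measured. Of these 1 was called above (15.8% of all probe sets), 6 below (72.5%) and 3 neither (11.6%), with a median of 5.52 beside 5.04 over all probe sets. Wee1, the G2 kinase gene driven through E-boxes, was below at 4.51 ± 0.19 and Noct, a rhythmic phosphatase gene first described as a deadenylase, was below at 5.20 on every array. Nampt, the rate-limiting enzyme of NAD salvage, was above at 7.83 on every array (limma, adjusted p = 0.000805). Lgals1 varied most, with 5.18, 6.34 and 5.98 on replicates 1, 3 and 5, and was called below (limma, adjusted p = 0.0451), a call that was lost under several alternatives.

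Per1, Per2 and Bhlhe40 also belong to the acute responses to glucocorticoid and to cell handling, so genes of those responses are given beside them. Of 12 glucocorticoid responsive genes, 8 were called below, 2 above and 2 neither, beside 72.5%, 15.8% and 11.6% of all probe sets. Fkbp5, a classical target of the receptor, was below at 4.17 on every array and Tsc22d3 was called neither at 6.55, while Sgk1 was above at 10.29, 9.51 and 10.29 on replicates 1, 3 and 5. The widest differences were those of Gadd45g, at 5.72, 6.98 and 5.24, and Ddit4, at 4.82, 6.17 and 5.33, both highest on replicate 3. The 18 immediate early genes had a median of 5.94, beside 5.04 over all probe sets. Of these, 10 were called below, 6 above and 2 neither, beside 72.5%, 15.8% and 11.6% of all probe sets. The 6 above were Dusp1 at 9.64 ± 0.33, Jun at 8.99 ± 0.23, Btg2 at 7.79 ± 0.30, Klf4 at 7.41, Klf6 at 7.24 ± 0.16 and Ier3 at 7.08. Of the 18 genes, 7 were highest on replicate 1, beside 2082 of all 21789 probe sets. Fos at 5.39 ± 0.26 and Egr1 at 5.26 were below, and Atf3, the only one to differ by over 2-fold, was at 6.14, 5.07 and 4.75.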

How the data were processed

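Total RNA was hybridised to whole-transcript Affymetrix arrays of the mouse. Expression Console is the tool in the submitters' processing notes (version not stated there), and the study used RMA for its own analysis. The authors deposited log2 signals per probe set, which range from 1.39 to 14.40. RMA summarizes probes by median polish, which can return equal values for several arrays. No source used here states which summarization gave the deposited values, and whether it made the identical or shared values was not tested. No source used here says which arrays shared a normalization. Scanner intensities were not used, so background correction and batches could not be examined, and the number of arrays limits the precision. Probe sets were named from the platform annotation: 21789 name 1 gene, 1621 several and 12147 none there. Entrez identifiers matched RefSeq (GRCm38.p6) for 21698, and no member's symbol changed.

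The mean was tested against log2 of 100, two-sided, with limma 3.58.1 in R 4.3.3 and an intercept only. The prior of the variance was estimated on the 4406 probe sets that differ on all 3 arrays (SD 0.288 with 2.03 degrees of freedom) and applied to all. The fit was also run on simulated data, with deviations drawn over all probe sets whatever their level. No result given here rests on that run. For genes with several probe sets the highest mean was taken. p-values combine the spread among 3 kidneys with that of other probe sets through the prior, and measure no spread beyond these kidneys. Members, lists, prior and level were chosen with earlier results of these data known. All members and all measured loop and turnover genes are named. From the other lists, the first 2 genes, those called above in lists of other cell types and some of those over 2-fold are named. Nampt, Sgk1, the immediate early genes called above and the output genes named under the alternatives were chosen after their values were seen. Genes with a pattern like that of a member were not sought, because Arntl and Clock varied by 0.03 at most. Alternatives changed the prior, level, normalization, filter, set adjusted over, probe set rule and arrays.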

Additional observations from a re-analysis of the deposited data

How the results depend on the processing

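All 10 calls of core clock genes were the same with the variance prior from all probe sets or quantile normalization. They were also the same with arrays centred on the common median or adjustment over all probe sets. Taking the mean of a gene's probe sets could not move their levels, because each of the 10 has 1 probe set. The adjusted p of Arntl against 100 ranged from 0.000466 to 0.136 over the alternatives. Without replicate 1, 3 or 5, 1 core gene was above and 8 below in every case, and 0 differed by over 2-fold. The glucocorticoid list then had 1 to 2 above, and Nfil3 ranged from -0.23 to 0.13 around the level, over it without replicate 3.

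Against the olfactory receptor level, 6 core genes were above and 1 below, 3 other loop genes were below, 9 turnover genes above and 1 below, 5 output genes above and 2 below, 5 glucocorticoid genes above and 2 below, and 16 immediate early genes above and 1 below. Levels then lay over it for Per1 (0.10), Per3 (0.55), Cry1 (0.64), Dbp (0.92), Tef (0.76), Rora (0.21), Nfil3 (1.74), Bhlhe41 (0.18), Timeless (0.12), Btrc (1.702), Fbxw11 (1.69), Noct (0.34), Tspan4 (1.65) and Lgals1 (0.98), all under 100. Against 50, 4 core genes were below, 9 turnover and 4 output genes above, and 4 glucocorticoid and 2 immediate early genes below. Dbp (0.13), Nfil3 (0.95), Btrc (0.91), Fbxw11 (0.90), Tspan4 (0.86) and Lgals1 (0.19) lay over 50. Against 200, 1 core gene (Clock), 0 loop, 3 turnover, 0 output, 1 glucocorticoid and 2 immediate early genes were above, and 6 turnover genes below. Arntl (-0.56), Csnk1d (-0.0201), Csnk1e (-0.75), Sirt1 (-0.67), Klf9 (-0.997) and Klf10 (-0.82) lay under 200.

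With dim probe sets left out, fewer genes were tested, and 5 core, 3 loop, 0 turnover, 1 output and 5 glucocorticoid genes were below. Per2, Cry2 and Bhlhe40 were then not tested. With the prior from all probe sets, 1 loop gene was above, 4 turnover genes below and 2 output genes above. Centring put Klf9 at -0.00775, against 0.00341. Over all 21789 probe sets, 9680 were above the olfactory receptor level, 6238 above 50 and 1819 above 200, against 3451 above 100. Below the same levels were 7889, 11978 and 18366, against 15803 below 100. No paired analysis was possible because all arrays form 1 group.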
